A study of Rattus norvegicus with 939 samples.

Results

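Gdf15, Fgf21, Igfbp1 and Inhbe encode proteins that the liver releases into the blood, and all of them are known to be induced when liver cells are under stress. These 4 genes were taken by name from the 14218 rat genes that the array annotation ties to at least 1 probe set, and each of the 4 is read by a single probe set. Messenger RNA was measured on microarrays of primary hepatocytes, liver cells freshly isolated from rats and kept in culture. The cells received 1 of 125 compounds dissolved in the solvent DMSO (826 arrays) or DMSO without a compound (113 control arrays), and were harvested after 0.67 d (436 arrays) or 1 d (503 arrays); the labels give no strain, sex or age.

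The arrays fell into 5 campaigns by hybridization date. Campaign 1 held 736 treated and 88 control arrays of 120 compounds, campaign 2 held 24 treated and 10 control arrays of 4 compounds that act on kinases, and campaign 3 held 6 treated and 6 control arrays of cerivastatin. Campaign 4 repeated chlorpromazine at 1 d with 6 treated and 6 control arrays, and campaign 5 gave 6 compounds at 3 doses each at 1 d with 54 treated and 3 control arrays. Nearly every compound was given at 1 dose, and the doses differ between compounds by orders of magnitude, so that a compound is named here with the dose it was given. Each compound and dose of campaigns 1 to 3 (125 compounds, of which 3 were given at 2 doses) was compared with the control arrays whose description names the compound, 5 or 6 treated arrays against 6 to 34 control arrays (median 10). Several compounds share the same control arrays, so the comparisons are not independent of each other.

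Gdf15, growth differentiation factor 15, is a distant member of the TGF-beta family that acts on a receptor in the hindbrain and lowers food intake. Fgf21, fibroblast growth factor 21, is a fasting hormone that needs beta-Klotho as its co-receptor, and its gene is a known target of PPAR alpha and of ATF4. Igfbp1, insulin-like growth factor binding protein 1, holds insulin-like growth factors in the circulation, and its gene is switched off by insulin and switched on by FoxO factors, glucocorticoids and lack of oxygen. Inhbe encodes the beta E chain of activin E, another TGF-beta family hormone made almost only by hepatocytes. ATF4 is the transcription factor of the integrated stress response, the shared answer of cells to amino acid shortage, unfolded protein in the endoplasmic reticulum and other insults.

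The DNA in front of each gene is shown because these 4 genes are known for elements that such factors bind. Each window holds the 250 bases before a start site of transcription, taken from the RefSeq annotation of the rat assembly GRCr8 and written 5′ to 3′ on the strand of the gene. Capitals mark the matches to the motifs searched. RefSeq gives Gdf15, a gene on chromosome 16 from base 18838436 to 18842022, 2 start sites, with the windows chr16:18838186-18838435 and chr16:18839015-18839264 on the plus strand, and the second lies inside the span of the gene. The windows of the other genes are chr1:105221377-105221626 on the minus strand for Fgf21 (gene from 105219825 to 105221376), chr14:86261027-86261276 on the plus strand for Igfbp1 (gene from 86261277 to 86266344), and chr7:65064520-65064769 on the minus strand for Inhbe (gene from 65061531 to 65064519).
Gdf15, first start: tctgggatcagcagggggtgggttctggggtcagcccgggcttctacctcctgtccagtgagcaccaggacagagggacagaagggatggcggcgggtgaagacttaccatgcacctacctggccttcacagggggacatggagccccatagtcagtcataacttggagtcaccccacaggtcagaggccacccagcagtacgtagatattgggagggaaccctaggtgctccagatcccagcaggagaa
Gdf15, second start: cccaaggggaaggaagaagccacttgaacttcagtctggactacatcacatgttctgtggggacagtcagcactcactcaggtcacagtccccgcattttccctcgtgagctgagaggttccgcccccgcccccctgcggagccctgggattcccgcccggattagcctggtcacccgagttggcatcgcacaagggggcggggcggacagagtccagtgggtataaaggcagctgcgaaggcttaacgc
Fgf21: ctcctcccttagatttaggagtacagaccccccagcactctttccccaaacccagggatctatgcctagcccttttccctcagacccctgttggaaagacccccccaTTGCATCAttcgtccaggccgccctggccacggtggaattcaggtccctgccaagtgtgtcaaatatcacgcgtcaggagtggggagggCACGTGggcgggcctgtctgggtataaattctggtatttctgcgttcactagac
Igfbp1: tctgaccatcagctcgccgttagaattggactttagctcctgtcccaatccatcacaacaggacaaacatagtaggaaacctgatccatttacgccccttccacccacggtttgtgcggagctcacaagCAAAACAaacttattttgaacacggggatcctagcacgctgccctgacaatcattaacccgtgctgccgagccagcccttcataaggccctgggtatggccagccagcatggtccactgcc
Inhbe: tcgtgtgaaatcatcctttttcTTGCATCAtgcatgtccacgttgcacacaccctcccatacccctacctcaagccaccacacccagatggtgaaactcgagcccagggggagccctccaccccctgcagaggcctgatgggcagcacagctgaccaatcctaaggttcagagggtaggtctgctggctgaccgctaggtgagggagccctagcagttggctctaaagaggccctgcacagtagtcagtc

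The windows of Fgf21 and Inhbe both hold the core of the element that C/EBP and ATF factors bind as pairs, TGATGNAA, on the opposite strand, where it reads TTGCATCA. Counted from the start, the match covers bases -143 to -136 of Fgf21 and bases -228 to -221 of Inhbe, and 3.4% of the 33469 windows of this kind hold it. The Fgf21 window also holds the E box CACGTG at bases -54 to -49, which 5.59% of all windows hold. The Igfbp1 window holds CAAAACA at bases -121 to -115, and 8.35% of windows hold this or the other FoxO motif searched, GTAAACA. None of the 4 genes had a match to the endoplasmic reticulum stress element known as ERSE, to the cyclic AMP element TGACGTCA or to the direct repeat AGGTCANAGGTCA that PPARs bind, which 0.0657%, 1.59% and 0.0508% of windows hold, and neither Gdf15 window had a match to any motif. Both strands were searched, and the marked matches do not overlap each other.

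The values are log2 intensities as the authors deposited them. The titles of control arrays carry codes that begin with 1 of 54 dates, whose meaning the labels do not state, and those of treated arrays carry none, so it is not known which arrays come from separate animals or cultures, and the p-values measure the spread between arrays, which may be partly technical. The 9 hepatocyte marker genes on the array averaged 12.5 on the log2 scale over the control arrays (range per array 12.0 to 12.8) and ranged from 10.1 to 13.2 in treated arrays. The marker averages were 6.12 for Kupffer cells (range per control array 4.96 to 8.79), 5.63 for endothelial cells (4.40 to 6.80), 5.37 for stellate cells (4.80 to 6.03) and 5.37 for cholangiocytes (5.00 to 6.28), and levels of different probe sets share no scale. Of these markers Cps1 fell in 76 of the comparisons described next, Apob in 72 and Hnf4a in 51, while Alb fell in 0. Of 5 Kupffer cell markers Cd68 rose in 26 and fell in 0, while Clec4f, Csf1r, Cd163 and Cd5l rose in 0 and fell in 4 to 6 each. Of 5 endothelial markers Kdr and Lyve1 fell in 54 and 37 comparisons, whereas Tek fell in 8, Pecam1 in 3 and Stab2 in 0. In such bulk samples, fewer cells of a type and less RNA per cell cannot be told apart.

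Among 736 treated arrays of campaign 1, 2 arrays of the same hybridization day went against their labels when each array was set against the mean of every compound over 2000 variable genes. An array labelled clofibrate at 0.67 d correlated with the remaining clofibrate arrays at r = 0.22 and with gemfibrozil at r = 0.92, and an array labelled gemfibrozil at 1 d correlated with the remaining gemfibrozil arrays at r = -0.03 and best, at r = 0.63, with fenofibrate. The median over all arrays was 0.83, and 83 arrays were below 0.5. Both arrays were kept under their labels, and the results of these 2 compounds are given with and without them.

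In control cells Igfbp1 was the least steady of the 4 genes. Over 113 control arrays its log2 value was 10.31 ± 1.01 (SD), from 6.91 to 11.94, whereas Inhbe stayed at 8.30 ± 0.22, from 7.70 to 8.84. Gdf15 was at 6.51 ± 0.49 (5.53 to 7.73) and Fgf21 at 6.08 ± 0.49 (5.09 to 7.48). The Igfbp1 level differed with exposure time. In campaigns 1 to 3 it was 10.84 ± 0.72 at 0.67 d (n = 52) and 9.96 ± 0.965 at 1 d (n = 52). With campaigns 4 and 5, which have controls at 1 d only, it was 9.85 ± 1.01 at 1 d (n = 61). In 14 of 15 control sets with both times the 1 d mean was the lower one, with a median difference of -0.95. For Fgf21 the 1 d mean was lower in 13 of 15 sets (median difference -0.29), and for Gdf15 and Inhbe in 11 of 15 each. The median SD within a control group was 0.37 for Gdf15, 0.37 for Fgf21, 0.77 for Igfbp1 and 0.19 for Inhbe.

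Gdf15 was the member raised by most compounds. A change was called when limma, fitted over all genes with treatment and exposure time as terms, gave a Benjamini-Hochberg adjusted p of at most 0.01 and a change of at least 1.5-fold. By this rule Gdf15 rose in 73 comparisons and fell in 0, with 0 falls also at an unadjusted p under 0.05 and by the methods' t-test. Fgf21 rose in 57 and fell in 2. Igfbp1 rose in 31 and fell in 2. Inhbe went mostly the other way: it rose in 10 comparisons and fell in 25. In control arrays the mean log2 values of Gdf15 (6.51) and Fgf21 (6.08) were lower than those of Inhbe (8.30) and Igfbp1 (10.31). Falls of Gdf15 and Fgf21 may therefore have had less room to show, which was not tested. Over all genes and comparisons 3.67% of tests were called higher and 4.92% lower, so the shares of rises of Gdf15 (57.0%), Fgf21 (44.5%) and Igfbp1 (24.2%) stood far above the background and that of Inhbe (7.81%) a little above it, while the share of falls of Inhbe was 19.5%. Ranked by the number of comparisons in which a gene rose, Gdf15 had rank 10 of 14218 genes, Fgf21 rank 118, Igfbp1 rank 586 and Inhbe rank 1831. The genes were chosen with earlier results of these data known, so these shares and ranks are descriptions only. Leaving out the 2 arrays that stood apart changed none of these 8 counts of rises and falls. Without the arrays numbered 1, Fgf21 rose in 36 and Igfbp1 in 19 comparisons; from 1 d alone Gdf15 rose in 48 and Igfbp1 in 12, and from 0.67 d alone Gdf15 rose in 42, Fgf21 in 22 and Igfbp1 in 16 and Inhbe fell in 14. In some groups more than 1 treated array carries the number 1, and leaving out that number drops all of them. A bound of 2-fold left 5 rises and 12 falls of Inhbe.

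**Figure D1:**
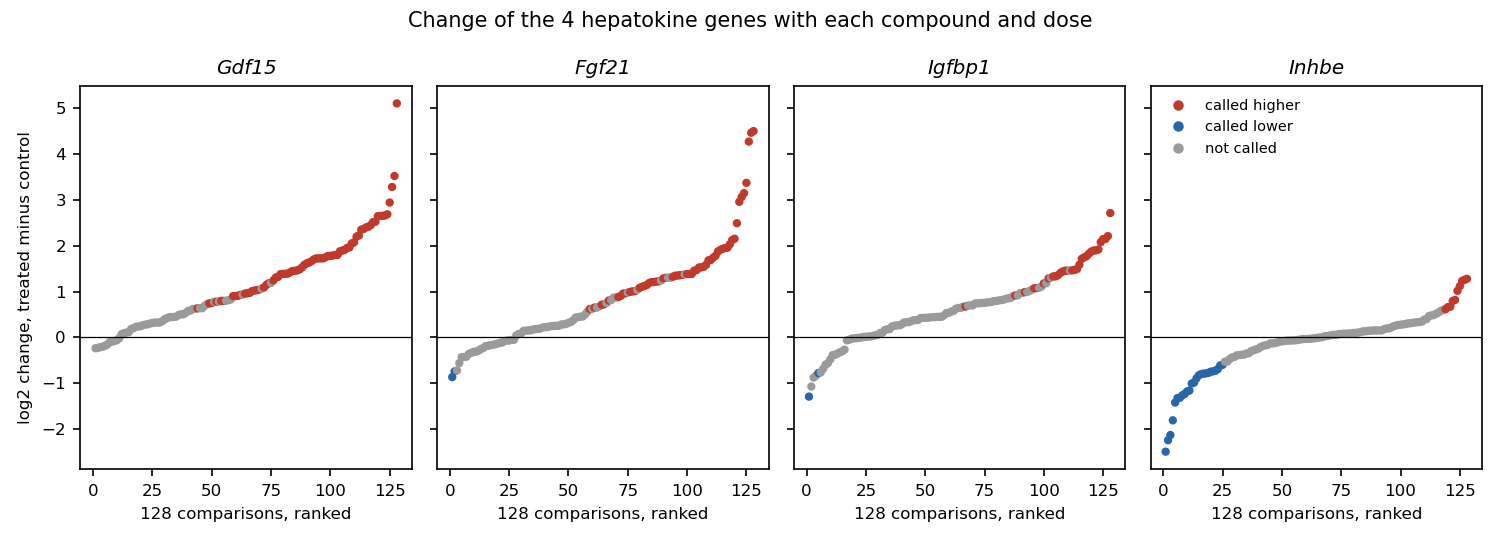
Log2 change (treated minus control) of each gene in the comparisons of campaigns 1 to 3, ordered from lowest to highest within each panel, with red points called higher, blue points called lower and grey points not called. Gdf15 lies above 0 in 117 comparisons, Fgf21 in 101 and Igfbp1 in 105, and Inhbe in 62.

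The median change over all comparisons was 0.96 on the log2 scale for Gdf15, 0.72 for Fgf21, 0.64 for Igfbp1 and -0.01 for Inhbe. Among the called rises the median was 3.16-fold for Gdf15, 2.60-fold for Fgf21, 2.77-fold for Igfbp1 and 1.89-fold for Inhbe. Rises beyond 4-fold numbered 20 for Gdf15, 11 for Fgf21, 5 for Igfbp1 and 0 for Inhbe. In 41 of the 73 Gdf15 calls the treated and control arrays did not overlap, as in 24 of 59 for Fgf21, 9 of 33 for Igfbp1 and 23 of 35 for Inhbe, and in 68.2% of the calls over all genes. For none of these genes was the share above that of all genes.

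The largest rise of Gdf15 came with pantoprazole, which blocks the proton pump of the stomach. At 650 µM the 6 treated arrays had a lowest, median and highest log2 value of 10.89, 11.22 and 12.47, against 5.70, 6.05 and 7.73 in 8 control arrays. Every treated array lay more than 3 log2 units above every control array. The fitted rise was 34.2-fold (log2 change 5.10 ± 0.31 SE, limma adjusted p = 3.39e-09). Valeric acid, a short-chain fatty acid, followed at 23000 µM with treated arrays at 9.07, 10.06 and 10.76 against 6.05, 6.46 and 6.83 (11.4-fold, log2 change 3.51 ± 0.24, adjusted p = 4.02e-08).

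The next compounds were of unlike kinds. The DNA alkylating prodrug ifosfamide at 11000 µM raised Gdf15 9.69-fold, with treated arrays from 8.76 to 10.71 and controls from 5.82 to 7.66. The microtubule poison vinblastine at 45 µM raised it 7.66-fold (8.81 to 10.09 against 5.82 to 7.16), the antidepressant venlafaxine at 1481 µM 6.41-fold (8.49 to 9.68 against 5.82 to 7.16), and the retinoid isotretinoin at 500 µM 6.29-fold (8.55 to 9.90 against 6.10 to 7.38). In none of these did the treated and control arrays overlap. Vinblastine and venlafaxine share their control arrays.

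Fgf21 rose most with gemfibrozil, a fibrate that lowers blood lipids. At 2000 µM its treated arrays had a lowest, median and highest value of 7.30, 11.56 and 11.94 against 5.42, 6.59 and 7.08 in 8 controls. The array at 7.30 is the one that resembled the other fibrates, and the remaining 5 arrays were all at 11.45 or above. The fitted rise was 22.5-fold (log2 change 4.49 ± 0.59, adjusted p = 0.000622) and 36.5-fold (5.19 ± 0.27, adjusted p = 3.81e-09) without that array, and with it the call was lost at 1 d alone (3.90, adjusted p = 0.183) and without the arrays numbered 2 (3.89, adjusted p = 0.107). Valdecoxib, an inhibitor of the prostaglandin-forming enzyme COX-2, raised it 22-fold at 450 µM, with treated arrays at 9.53, 10.90 and 11.33 against 5.14, 6.16 and 6.94 in 14 controls (log2 change 4.46 ± 0.25, adjusted p = 2e-12).

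Vinblastine at 45 µM raised Fgf21 19.2-fold (log2 change 4.26 ± 0.25), with treated arrays from 9.45 to 11.27 and controls from 5.39 to 7.48. Itraconazole, an antifungal that blocks sterol synthesis, raised it 10.3-fold at 10 µM, valeric acid 8.83-fold at 23000 µM, and amantadine, an antiviral and antiparkinson drug, 8.33-fold at 1500 µM. The treated arrays of these 4 compounds lay wholly above their controls.

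Fgf21 fell in 2 comparisons. With monocrotaline, a plant alkaloid, at 333 µM the treated arrays were at 5.09, 5.22 and 5.58 and the 6 controls at 5.75, 6.23 and 6.51 without overlap (log2 change -0.86 ± 0.13, adjusted p = 0.000237). With carmustine at 550 µM they were at 5.04, 5.64 and 6.32 against 5.80, 6.30 and 6.94, which overlap (-0.74 ± 0.16, adjusted p = 0.0021). The carmustine call was lost when all control arrays of the campaign were used (-0.51, adjusted p = 0.0149), at 0.67 d alone (-0.58, adjusted p = 0.104) and without the arrays numbered 1 (-0.68, adjusted p = 0.0241), and that of monocrotaline at 1 d alone (-0.54, adjusted p = 0.0442).

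Igfbp1 rose most with nimesulide, a COX-2 preferring anti-inflammatory drug. At 61.7 µM the treated arrays were at 12.40, 12.81 and 12.95 and the 8 controls at 8.28, 10.26 and 11.62. The treated arrays lay close together above widely scattered controls, and the rise was 6.54-fold (log2 change 2.71 ± 0.33, adjusted p = 8.07e-06); without the arrays numbered 1 it was 2.51 on the log2 scale with an adjusted p of 0.0432. The antidepressant citalopram at 150 µM raised Igfbp1 4.62-fold (12.03 to 12.73 against 8.57 to 11.21), and dexamethasone, a synthetic glucocorticoid, raised it 4.42-fold at 456 µM (12.95 to 13.37 against 10.52 to 11.62).

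Gemfibrozil at 2000 µM raised Igfbp1 4.41-fold with overlapping arrays (9.85 to 13.30 against 8.28 to 11.62) and 5.54-fold without the array that stood apart. Cytochalasin B, which blocks actin filament growth, raised it 4.21-fold at 167 µM and marimastat, an inhibitor of matrix metalloproteases, 3.77-fold at 1000 µM, neither with overlap. Without the arrays numbered 1 the marimastat rise was 2.01 on the log2 scale with an adjusted p of 0.0230. Igfbp1 fell with monocrotaline (8.66, 9.37 and 10.56 against 9.52, 10.95 and 11.61, log2 change -1.29 ± 0.25, adjusted p = 0.00134) and with the nitrosourea lomustine at 560 µM (10.01, 10.19 and 10.60 against 10.52, 10.99 and 11.62, log2 change -0.77 ± 0.16, adjusted p = 0.000684). The arrays overlap in both. The monocrotaline call of Igfbp1 was lost at 1 d alone (-1.39, adjusted p = 0.0325) and at 0.67 d alone (-1.19, adjusted p = 0.0331), and with all controls of the campaign the lomustine change was -0.26 (adjusted p = 0.468).

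Inhbe moved within a narrower range upward than downward. Its largest rise, with gemfibrozil, was 2.42-fold (8.87, 9.80 and 10.15 against a range of 8.00 to 8.63) and 2.70-fold without the array that stood apart. Amantadine at 1500 µM raised it 2.38-fold (9.23 to 9.75 against 8.05 to 8.70) and vinblastine 2.35-fold (9.22 to 9.88 against 8.01 to 8.84). The statins simvastatin at 160 µM and atorvastatin at 250 µM, which block cholesterol synthesis at HMG-CoA reductase, raised it 2.17-fold and 2.02-fold, and the immunosuppressant cyclosporin A at 10 µM 1.76-fold. Treated and control arrays did not overlap in any of these 6.

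The largest fall of Inhbe came with valeric acid, where the treated arrays were at 5.34, 5.84 and 6.18 and the controls at 8.14, 8.30 and 8.46. The log2 change was -2.49 ± 0.11 (adjusted p = 1.29e-09), and the groups were separated by almost 2 log2 units. The anthracycline idarubicin at 1.5 µM gave treated arrays from 5.61 to 6.40 against 7.92 to 8.40 in 18 controls (-2.24 ± 0.08, adjusted p = 2.2e-16), carmustine from 5.34 to 7.07 against 8.01 to 8.51 (-2.12 ± 0.21) and lomustine from 5.80 to 6.94 against 7.95 to 8.31 (-1.80 ± 0.15). None of these overlap. The 3 drugs attack DNA, and valeric acid does not belong to that class.

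**Figure D2:**
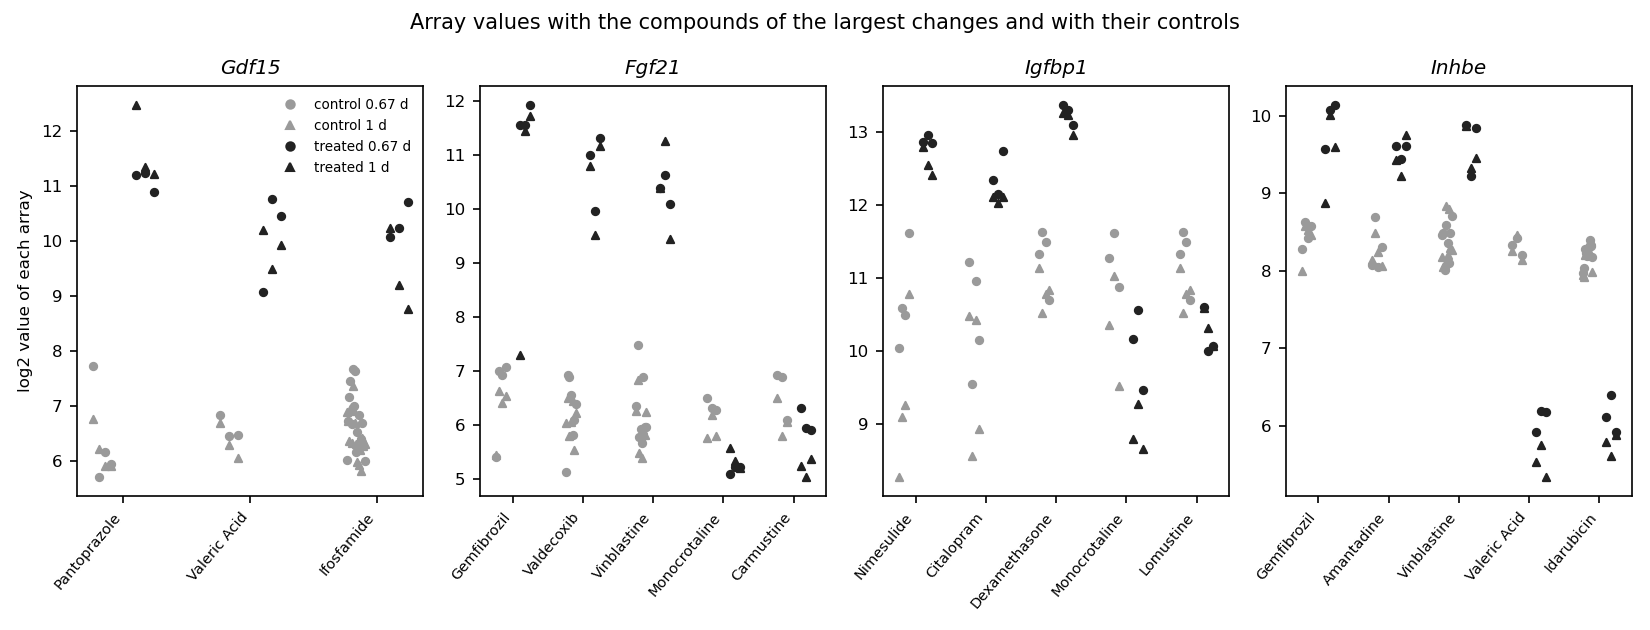
Log2 value of each array for the compounds with the largest called changes of each gene (up to 3 rises and 2 falls, left to right), with control arrays in grey, treated arrays in black, circles for 0.67 d and triangles for 1 d. Gdf15 with pantoprazole lies at 10.89 to 12.47 above controls at 5.70 to 7.73, the single low gemfibrozil array of Fgf21 is at 7.30, and Inhbe with valeric acid and idarubicin lies below every control array.

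The 4 genes often rose together but seldom all at once. Of the comparisons, 40 raised none of them, 33 raised 1, 30 raised 2, 22 raised 3 and 3 raised all 4. These 3 were gemfibrozil, atorvastatin at 250 µM and sotalol, a beta blocker, at 6666 µM. Sotalol raised Gdf15 2.62-fold, Fgf21 2.46-fold, Igfbp1 2.51-fold and Inhbe 1.58-fold, and atorvastatin raised them 1.71-fold, 4.35-fold, 3.40-fold and 2.02-fold.

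Fgf21 rose in 47 of the 73 comparisons that raised Gdf15 (64.4%), and these were 82.5% of the 57 that raised Fgf21. Igfbp1 rose in 27 of the 73 (37.0%), which were 87.1% of its own 31. Inhbe rose in 7 of the 73 (9.59%) and fell in 17 of them. Across the comparisons the log2 changes of Gdf15 correlated with those of Fgf21 at r = 0.46 (Spearman rho 0.43), with those of Igfbp1 at 0.31 (0.38) and with those of Inhbe at -0.22 (-0.09). Fgf21 and Igfbp1 correlated at 0.47 (0.56) and Fgf21 and Inhbe at 0.37 (0.44). The points share control arrays, so these correlations describe the comparisons and carry no p.

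**Figure D3:**
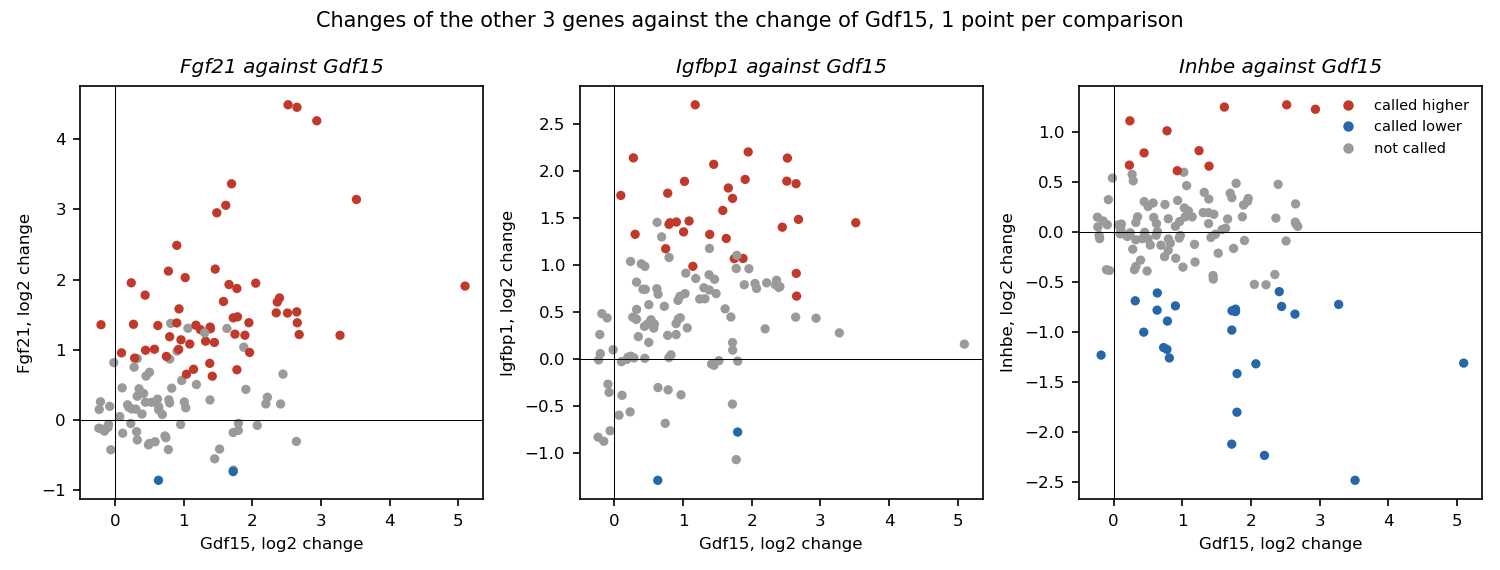
Log2 change of Fgf21, Igfbp1 and Inhbe (vertical axes) against the log2 change of Gdf15 (horizontal axis), 1 point for each comparison, coloured by the call of the gene on the vertical axis. The called Inhbe falls reach -2.49 and lie mostly where Gdf15 is above 0, while the called Fgf21 rises spread from Gdf15 changes near 0 up to 5.10.

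Whether 2 of the genes changed by different amounts in the same arrays was tested directly, on the difference of their log2 values in each array, for 6 pairs of genes in every comparison (768 tests, limma with the prior of the fit over all genes, adjusted p of at most 0.05 and a difference of at least 1.5-fold). The changes were unequal in 351 tests. That prior was estimated on single genes and not on differences between genes, so the standard errors may be too small. Different probe sets share no scale, so the counts compare measured changes only. Gdf15 rose more than Fgf21 in 35 comparisons and less in 15, and rose more than Igfbp1 in 42 and less in 8. The change of Inhbe lay below that of Gdf15 in 81 comparisons and above it in 1, and below that of Fgf21 in 77 and above it in 1.

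In 19 comparisons at least 1 of the genes rose while another fell, and Inhbe was among the falling genes in all 19. Gdf15 rose in 17 of them, and the exceptions were colchicine at 1000 µM, where Fgf21 rose, and the bronchodilator doxofylline at 13500 µM, where Igfbp1 rose. With valeric acid Gdf15, Fgf21 and Igfbp1 all rose (Igfbp1 2.74-fold) while Inhbe fell. With monocrotaline Gdf15 rose 1.55-fold (6.88, 7.09 and 7.29 against 6.05, 6.46 and 6.83, adjusted p = 0.00124) and the other 3 fell. With carmustine Gdf15 rose 3.29-fold while Fgf21 and Inhbe fell, and with lomustine Gdf15 rose 3.47-fold while Igfbp1 and Inhbe fell.

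The other discordant compounds were 3-methylcholanthrene, 4,4'-methylenedianiline, beta-estradiol, cisplatin, colchicine at 2000 µM, idarubicin, ifosfamide, lansoprazole, methapyrilene, omeprazole, pantoprazole, sparteine and stavudine. With pantoprazole, where Gdf15 rose most, Inhbe fell by 1.31 on the log2 scale (6.51, 6.84 and 7.85 against 8.05, 8.19 and 8.70). Colchicine, a microtubule poison like vinblastine, raised Fgf21 5.61-fold at 2000 µM and lowered Inhbe (-0.74 ± 0.13), whereas vinblastine raised both.

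The 34 comparisons in which none of the 4 genes was called were also those in which few genes of any kind were called, with a median of 15 (0 to 652), against a median of 1551.5 (52 to 4208) in the 94 others. How far the calls of these genes follow the size of the response as a whole was not tested.

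Compounds were grouped by pharmacological class, with each class named from textbook use. The 13 DNA-damaging agents raised Gdf15 in 8 comparisons and lowered Inhbe in 8, where 4.29% of tests over all genes were called higher and 6.09% lower. Over all comparisons Gdf15 itself rose in 57.0%, so its count in this class is near its own share. Inhbe fell in 19.5% of all comparisons. Fgf21 (2 higher, 1 lower) and Igfbp1 (1 lower) were called in fewer of them than Gdf15 and Inhbe. Monocrotaline was not on this list. Over the 18 classes the share of all tests ran from 1.14% to 9.21% higher and from 1.76% to 10.4% lower. The median log2 changes with the DNA-damaging agents were 1.45 for Gdf15, -0.15 for Fgf21, -0.06 for Igfbp1 and -0.72 for Inhbe, against 0.96, 0.72, 0.64 and -0.01 over all comparisons. Gdf15 rose and Inhbe fell with carmustine, cisplatin, idarubicin, ifosfamide and lomustine, only Inhbe fell with daunorubicin, doxorubicin and streptozotocin, and only Gdf15 rose with cyclophosphamide, etoposide and N-nitrosodiethylamine. Busulfan moved none of the 4, and chlorambucil raised Fgf21 alone.

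Idarubicin, daunorubicin and doxorubicin are anthracyclines, which insert between DNA bases and trap topoisomerase, and all 3 were given at 1.5 µM with 6 arrays each. Their treated arrays were compared directly, chosen after the class values had been seen, as 3 of 4 pairs of related compounds at the same dose. At an adjusted p of at most 0.05, 20.1% of genes differed between idarubicin and daunorubicin, 22.8% between idarubicin and doxorubicin and 0.626% between daunorubicin and doxorubicin. Gdf15 was at 7.84, 9.15 and 9.77 with idarubicin, 6.46, 7.50 and 8.20 with daunorubicin and 6.76, 7.12 and 8.22 with doxorubicin. Idarubicin was thus highest, with some overlap. It exceeded daunorubicin by 1.39 ± 0.31 on the log2 scale (adjusted p = 0.00395) and doxorubicin by 1.59 ± 0.31 (adjusted p = 0.00132). Inhbe was at 5.61, 5.90 and 6.40 with idarubicin, 7.10, 7.30 and 7.55 with daunorubicin and 7.16, 7.48 and 7.97 with doxorubicin, without overlap between idarubicin and the other two. It was lower with idarubicin by -1.36 ± 0.14 against daunorubicin (adjusted p = 9.72e-06) and -1.61 ± 0.14 against doxorubicin (adjusted p = 2.63e-06). Idarubicin is daunorubicin without a methoxy group, and doxorubicin carries an added hydroxyl group. Between daunorubicin and doxorubicin none of the 4 genes passed the test, with 95% intervals of -0.44 to 0.85 for Gdf15 and -0.55 to 0.05 for Inhbe, and for Fgf21 and Igfbp1 none of the 3 pairs passed it.

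The 4 proton pump inhibitors all raised Gdf15 (9.21% of tests over all genes were higher and 10.4% lower), by 2.64 on the log2 scale with lansoprazole at 240 µM, 2.41 with omeprazole at 400 µM, 5.10 with pantoprazole at 650 µM and 2.35 with rabeprazole at 333 µM. They share a benzimidazole and pyridine backbone, but the doses differ and the compounds were not compared with each other. Inhbe fell with lansoprazole (-0.82), omeprazole (-0.60) and pantoprazole (-1.31), and its change with rabeprazole was -0.42 (adjusted p = 0.0494). Fgf21 rose with pantoprazole (3.75-fold) and rabeprazole (2.88-fold), while its changes with lansoprazole (-0.31) and omeprazole (0.22) were not called. Igfbp1 was called with none of the 4, with changes from 0.16 to 0.79.

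The 3 statins (2.68% of tests over all genes higher, 3.14% lower) raised Fgf21 in all comparisons, 4.35-fold with atorvastatin at 250 µM, 4.08-fold with cerivastatin at 250 µM and 3.87-fold with simvastatin at 160 µM. Their treated arrays did not overlap the controls, with 7.74 to 8.95 for atorvastatin, 7.39 to 9.28 for cerivastatin and 8.08 to 8.52 for simvastatin against control arrays of 5.46 to 7.01. Igfbp1 rose with atorvastatin (3.40-fold) and cerivastatin (3.72-fold), and with simvastatin its change was 1.04 (adjusted p = 0.0147). Inhbe rose with atorvastatin and simvastatin, and with cerivastatin its change was 0.60 (adjusted p = 0.0145). The changes with atorvastatin and cerivastatin at 250 µM, set against each other across campaigns 1 and 3, did not pass the test for any of the 4 genes (0.675% of all genes did), with 95% intervals of the difference of -0.84 to 0.35 for Gdf15, -0.71 to 0.89 for Fgf21, -0.99 to 0.74 for Igfbp1 and 0.08 to 0.75 for Inhbe.

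Among the 3 fibrates, known activators of PPAR alpha, fenofibrate at 250 µM raised only Fgf21 (7.33, 7.43 and 7.92 against 5.39, 5.94 and 7.48, 2.57-fold). With clofibrate at 500 µM Fgf21 changed by 1.30 (adjusted p = 0.148), with treated arrays at 5.90, 6.78 and 11.56. The array at 11.56 is the one that resembled gemfibrozil, and without it the change was 0.51 (adjusted p = 0.370). All 4 azole antifungals raised Fgf21, with a median change of 1.76, and 3 raised Gdf15, while neither Igfbp1 nor Inhbe was called.

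Most of the listed antidepressants, antihistamines and beta blockers raised Gdf15, which rose in 57.0% of all comparisons. Of 10 antidepressants (4.47% of tests over all genes higher, 5.43% lower) 7 raised Gdf15 (median change 1.92), 7 raised Fgf21 (1.21), 3 raised Igfbp1 and 1, fluoxetine, raised Inhbe. The 3 that raised neither Gdf15 nor Fgf21 were clomipramine at 50 µM, paroxetine at 30 µM and sertraline at 23 µM. All 4 antihistamines raised Gdf15, and 3 of them raised Fgf21. Methapyrilene, a withdrawn antihistamine that damages rat liver, had other calls than the rest: with it Gdf15 rose by 2.07, the Fgf21 change was -0.08 and Inhbe fell by 1.32 (the difference between the compounds was not tested). All 3 beta blockers (5.3% of tests over all genes higher, 7.57% lower) raised Gdf15. Of 6 anti-inflammatory drugs 4 raised Igfbp1, namely nimesulide, sulindac, tenidap and valdecoxib, and 3 each raised Gdf15 and Fgf21.

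The remaining classes were mixed. The 8 antipsychotics raised Gdf15 in 5, Fgf21 in 3 and Igfbp1 in 2 comparisons, and the 6 sex steroids and related hormones in 4, 3 and 1. The microtubule poisons, in 4 comparisons of 3 compounds, raised Fgf21 in 3 and Gdf15 in 2, and Inhbe rose in 1 and fell in 2. Among 5 kinase inhibitors Gdf15, Fgf21 and Igfbp1 each rose in 2, and among 5 immunosuppressants Gdf15 rose in 2 and Fgf21 in 1. A class count is a description, since compounds of a class were given at different doses.

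**Figure D4:**
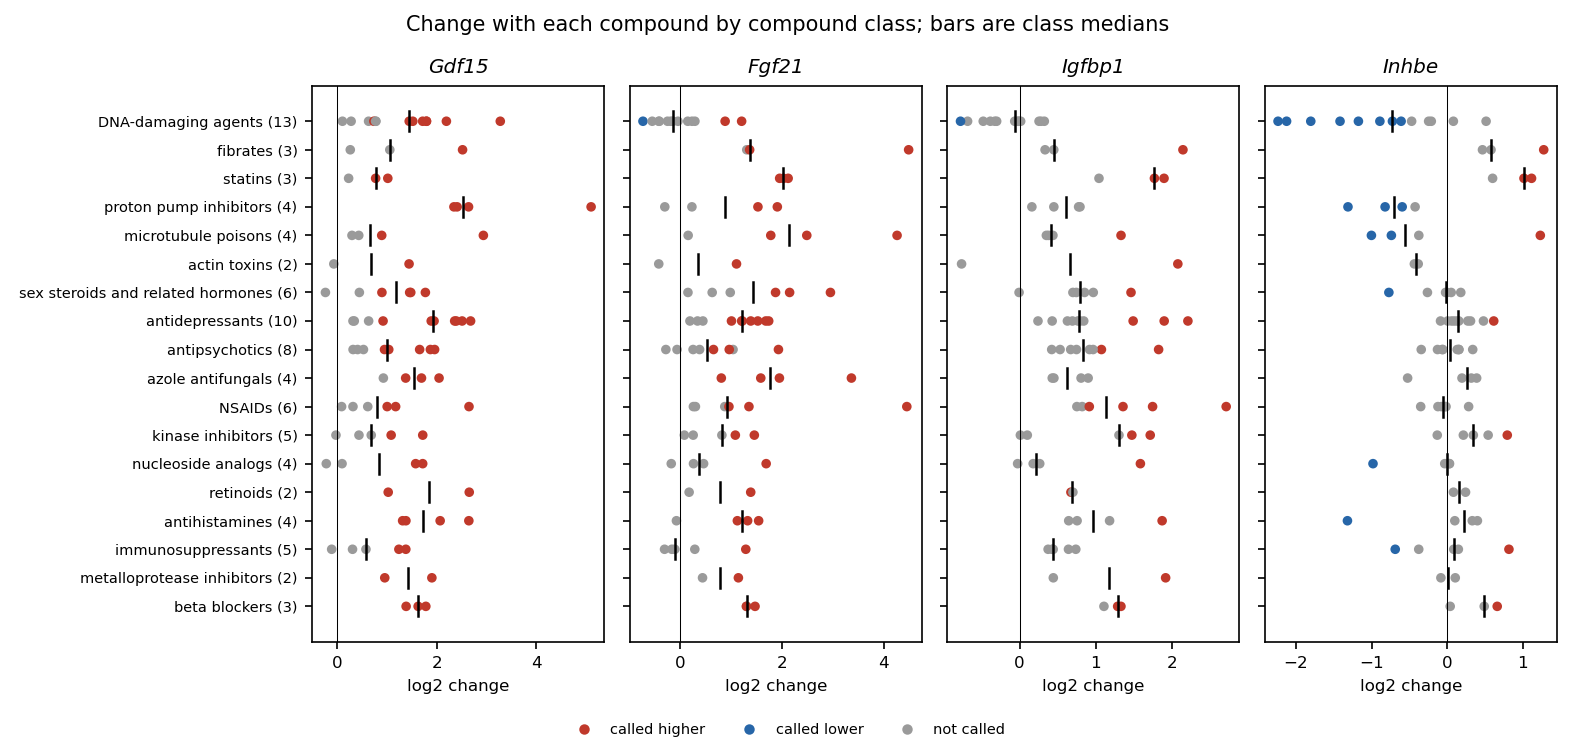
Log2 change of each gene (horizontal axes) with each compound of 18 classes (number of comparisons in brackets), coloured by call, with a black bar at the class median. The DNA-damaging agents lie to the right for Gdf15 (median 1.45) and to the left for Inhbe (median -0.72), the 3 statins lie at 1.95 to 2.12 for Fgf21, and pantoprazole stands alone at 5.10 for Gdf15.

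Genes of known pathways were counted over the same comparisons. Of 25 targets of ATF4 and its partner CHOP, 24 were more often called higher than lower, and the median target rose in 56 comparisons against a median of 0 over all genes. Ddit3, which encodes CHOP, and Trib3, a pseudokinase that restrains it, rose in 74 comparisons each. Cth, an enzyme of cysteine synthesis, was the exception, higher in 7 and lower in 25. Of 12 chaperones of the endoplasmic reticulum and their helpers, 11 were more often higher, led by Dnajb9 (74 higher) and Herpud1 (53 higher), and Xbp1, an endoplasmic reticulum stress factor, was called lower in 6 and higher in 0.

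The lists nearer to the single genes were less uniform. Among 14 p53 targets on the array Aen, an exonuclease of apoptosis, rose in 58 and Mdm2, which marks p53 for destruction, in 56, whereas Sesn1 fell in 34. Among 12 PPAR alpha targets Pdk4, which blocks glucose oxidation, rose in 73 and Cpt1b, which carries fatty acids into mitochondria, in 53, but Vnn1, a pantetheinase, fell in 65 and the fatty acid oxidation enzyme Acadm in 44. Among 10 genes that respond to insulin and FoxO, Irs2, an insulin receptor adaptor, rose in 72 and Pck1, which starts glucose formation, in 14 (24 lower), whereas Sesn3, a stress-induced sestrin, fell in 56 and rose in 1. Of 10 genes induced by lack of oxygen, Adm, a vessel-widening peptide, rose in 33 (11 lower) and the glucose-trapping enzyme Hk2 in 31, whereas the oxygen sensor Egln3 fell in 29 and rose in 4.

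Receptors of the 4 hormones went both ways, and their relatives seldom rose. Among 10 receptor genes measured, Fgfr3 fell in 66 and Fgfr4, the main fibroblast growth factor receptor of hepatocytes, in 54, while Acvr1c, an activin receptor, rose in 29 and Fgfr1 in 17 (10 lower). Gfral, Klb and Acvr1b were not among the genes tested here. Igfals, which with Igfbp3 carries insulin-like growth factors in blood, fell in 81 comparisons and Igf1 in 31, and both rose in 0. Igfbp4 fell in 47 and Igfbp2 rose in 6, so that Igfbp1 was the binding protein gene that rose most often among those of the list. Inhba, the beta A chain of activin A, fell in 37 and rose in 6, Inhbc, the neighbour of Inhbe on the genome, was called once in each direction, and Fst, which encodes the activin trap follistatin, rose in 19. Among 11 other liver hormones measured, Hamp, the iron hormone hepcidin, rose in 32 and Tsku in 28, while Selenop, the selenium carrier, fell in 62.

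These lists were read in the comparisons where a member rose most. With pantoprazole, in which 14.4% of genes rose and 15.1% fell, 20 of 25 ATF4 and CHOP targets rose, Ddit3 by 3.55 and Chac1, a glutathione-degrading enzyme, by 2.57 on the log2 scale. There 3 of 12 chaperone genes rose and 1 fell, 6 of 14 p53 targets rose and 3 fell, and 4 of 9 hepatocyte markers fell. With gemfibrozil (10.7% of genes rose and 12.3% fell) 19 of 25 ATF4 and CHOP targets and 9 of 12 chaperone genes rose. Of 12 PPAR alpha targets 6 rose, among them Pdk4 by 5.42, and 2 fell. With nimesulide (7.34% rose and 9.76% fell), where Igfbp1 rose most, 21 of 25 ATF4 and CHOP targets rose and 1 fell. There 8 of 10 hypoxia genes rose, among them Hk2 by 3.03, Adm by 2.12 and Vegfa, the vessel growth factor, by 1.58.

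With idarubicin (5.92% of genes rose and 7.04% fell), where Gdf15 rose and Inhbe fell, 12 of 14 p53 targets rose but 5 of 25 ATF4 and CHOP targets rose and 4 fell. Mdm2 rose by 1.17 and the cell cycle inhibitor Cdkn1a by 1.67, while Trib3 (0.31) and Asns (-0.41), the asparagine-making enzyme, were not called. With monocrotaline (2.71% rose and 7.18% fell), where Fgf21, Igfbp1 and Inhbe fell, 10 of 25 ATF4 and CHOP targets fell and 3 rose, with Chac1 at -1.12 and Asns at -0.76. With valeric acid (13.7% rose and 14.7% fell) the same list was split, with 10 higher and 3 lower, the latter near the share of all genes, and with Ddit3 at 3.96 and Trib3 at 0.69.

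The hepatocyte markers moved with some of these results, and their part in them was not tested. Their median change was -1.15 with vinblastine (6 of 9 lower), -0.64 with itraconazole, -0.61 with cyclosporin A, -0.61 with gemfibrozil and -0.48 with pantoprazole. Inhbe rose with 3 of these (vinblastine, gemfibrozil and cyclosporin A). Inhbe fell with idarubicin (marker median 0.07, 1 of 9 lower), valeric acid (-0.09, 1 of 9 lower), carmustine (-0.33, 3 of 9 lower), lomustine (-0.15, 3 of 9 lower) and monocrotaline (-0.27, 3 of 9 lower), and with dexamethasone 2 of 9 markers rose (median 0.43). The endothelial cell markers also moved: 3 of 5 were lower with idarubicin (median change -0.68) and carmustine (-0.78), 2 of 5 with lomustine (-0.51), 1 of 5 with valeric acid (-0.32) and 0 of 5 with monocrotaline (-0.48). Their part was not tested either. Of all genes 17.1% fell with vinblastine, 14.2% with carmustine and 15.6% with lomustine, and 4.33% rose with dexamethasone.

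By likeness of their log2 changes over the comparisons of campaigns 1 to 3, each gene had different companions. The 5 genes closest to Gdf15 were Nudt9 (Pearson r = 0.85), Rabgef1 (0.84), Pip4p1 (0.83), Suco (0.83) and Napa (0.83). Those closest to Fgf21 were Chac1 (0.76), Desi2 (0.74), Herpud1 (0.71), Poc5 (0.71) and Eprs1 (0.70). Those closest to Igfbp1 were Bnip3 (0.69), Vegfa (0.67), Insig1 (0.67), Nampt (0.65) and Rora (0.65), of which Bnip3 and Vegfa are on the hypoxia list. Those closest to Inhbe were Aldh1l2 (0.74), Iars1 (0.70), Arhgef2 (0.68), Phgdh (0.67) and Elk4 (0.64), of which Phgdh, the first enzyme of serine synthesis, is on the ATF4 list.

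The change at 1 d was tested against the change at 0.67 d as an interaction term in each comparison. Of 512 tests on the 4 genes 1 passed an adjusted p of 0.05, where 0.0909% of tests over all genes did. It was Fgf21 with the nucleoside analog zidovudine at 14800 µM. The treated arrays were at 6.93, 6.97 and 7.58 at 0.67 d and at 8.55, 8.56 and 8.68 at 1 d, so the 1 d arrays lay above all 0.67 d arrays. The change against controls was 0.81 at 0.67 d and 2.57 at 1 d, a difference of 1.76 ± 0.39 (limma adjusted p = 0.0454). The call, close to its threshold, was lost with the methods' t-test and whenever the arrays of 1 replicate number were left out, while 7 tests passed with all control arrays of the campaign.

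Campaign 5 gave 6 compounds at 3 doses with 3 arrays per dose and 3 controls for all of them. The replicate numbers followed the day of hybridization for 55 of 57 arrays, and arrays with the same number deviated together, so each value was also fitted with the number as a block. Against the controls, with 0.615% of tests called higher and 0.717% lower over all genes, Gdf15 rose with omeprazole at 365, 400 and 435 µM by 2.28, 2.47 and 2.86 on the log2 scale, and Igfbp1 rose at 400 and 435 µM by 2.74 and 2.58. With the block (1.11% higher and 1.27% lower) these calls held, and Igfbp1 with omeprazole at 365 µM (2.56), Fgf21 with omeprazole at 435 µM (0.63), Fgf21 with clofibrate at 125, 250 and 500 µM (0.93, 0.88 and 1.33) and Inhbe with clofibrate at 500 µM (0.90) were called as well. None of the 4 genes was called with allyl alcohol at 20, 30 and 40 µM, busulfan at 125, 250 and 500 µM or carbon tetrachloride at 193.7, 387.5 and 775 µM, nor with methapyrilene, whose Gdf15 changes were 1.78, 1.56 and 1.93 at 100, 300 and 500 µM.

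With clofibrate at 500 µM the differences of Fgf21 from the control of the same number were 1.07, 1.30 and 1.62, and those of Inhbe were 0.92, 0.94 and 0.84, so that every number moved the same way. The controls themselves were spread, with Igfbp1 at 9.02, 8.24 and 6.91 in numbers 1 to 3, and its omeprazole rise of 2.74 had a standard error of 0.47 without the block and 0.20 with it.

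No dose trend of the 4 genes passed the test, a slope over the 9 treated arrays of each compound (limma, adjusted p of at most 0.05: 0 of 24, where 0.00117% of tests over all genes did). With the block it was again 0 of 24, against 0.212% over all genes. At an unadjusted p under 0.05 there were 1 of 24 without and 5 of 24 with the block. Without the block the closest was Gdf15 with omeprazole, with a slope of 0.29 ± 0.06 per dose step (limma adjusted p = 0.644, and 0.0911 with the block). With the block Inhbe with clofibrate had the lowest adjusted p (slope 0.18 ± 0.04, limma adjusted p = 0.0827). The omeprazole doses span a narrow range.

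With methapyrilene the arrays numbered 2 did not follow the doses of the others. At 300 and 500 µM the Gdf15 difference from the control of the same number was 0.20 and 0.22 in number 2, against 2.80 and 3.18 in number 1 and 1.68 and 2.39 in number 3. At 100 µM number 2 was at 2.53. Inhbe mirrored this, with -1.43 at 100 µM and 0.03 and -0.09 at 300 and 500 µM in number 2. Over all 9 arrays the Gdf15 slope was 0.08 ± 0.38 per dose step (limma adjusted p = 1.00). The doses are given as labelled, and whether those of number 2 are right cannot be told from the labels.

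**Figure D5:**
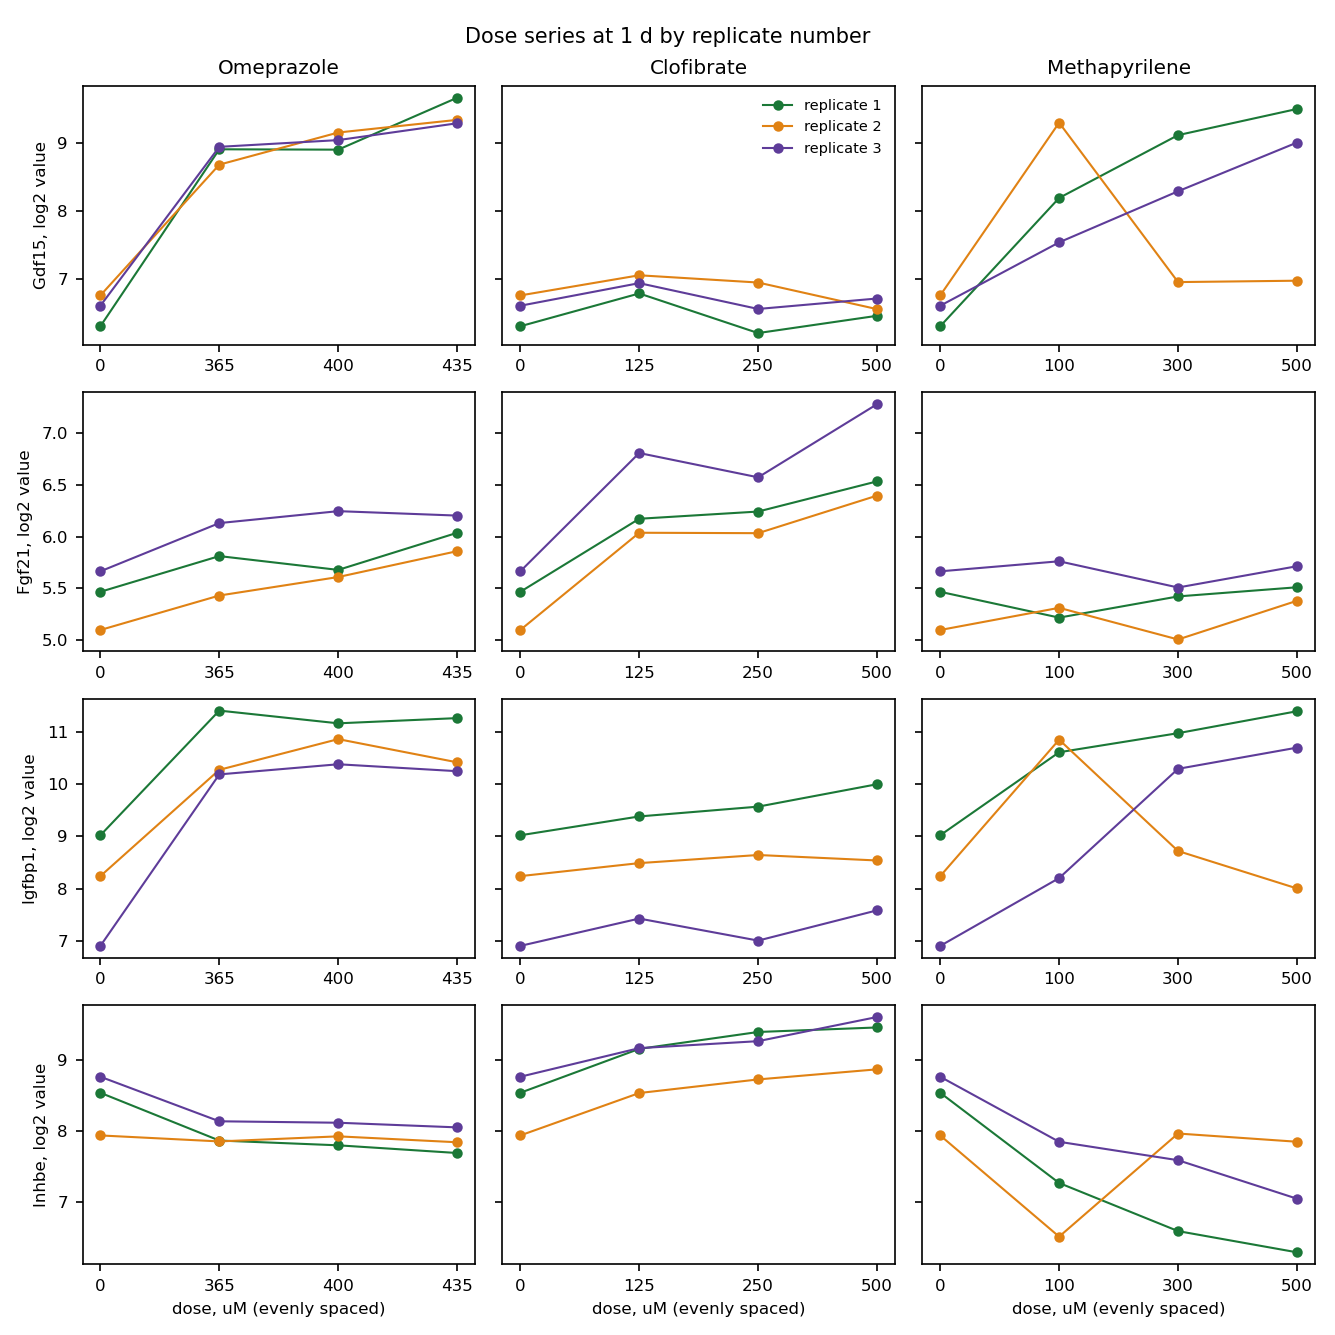
Log2 values of the 4 genes (rows) in the control (0) and at 3 doses in µM, evenly spaced on the horizontal axis, of omeprazole, clofibrate and methapyrilene at 1 d in campaign 5, with 1 line for each replicate number. Gdf15 is higher at every omeprazole dose than in the controls, Fgf21 and Inhbe are higher at every clofibrate dose within each number, and the methapyrilene arrays numbered 2 are displaced at 100 µM and near the control at 300 and 500 µM.

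For 7 compounds the same dose was measured again at 1 d in a later campaign, with other controls. None of the 28 differences between campaigns passed the test (limma, adjusted p of at most 0.05; 0.00100% of tests over all genes did, and 1 of the 28 had an unadjusted p under 0.05), and with 3 to 6 treated arrays per side the standard errors of these differences, 0.26 to 1.41, leave room for sizeable ones. Gdf15 changed by 2.59 in campaign 1 and 2.47 in campaign 5 with omeprazole at 400 µM, and by 2.10 and 1.56 with methapyrilene at 300 µM. Inhbe was at -0.66 and -0.47 with omeprazole and at -1.45 and -1.04 with methapyrilene. Igfbp1 with omeprazole was the widest apart, 1.05 in campaign 1 and 2.74 in campaign 5 (difference 1.69 ± 0.71, adjusted p = 0.962). Fgf21 with clofibrate at 500 µM was at 0.52 and 1.33, and Gdf15 with chlorpromazine at 43.9 µM was at 0.77 in campaign 1 and 0.37 in campaign 4. For Gdf15 with carbon tetrachloride at 775 µM the changes were 0.91 and 0.36, with busulfan at 500 µM -0.01 and 0.56, and with allyl alcohol at 30 µM 0.22 and 0.67.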

How the data were processed

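Gene expression in 826 treated and 113 control arrays was read from the log2 values that the authors deposited, background-corrected and normalized by RMA per the labels; the study's methods name frozen RMA. No version is given in the sources used here. Probe sets were named by the platform annotation, updated through RefSeq: of 31099, 20832 had 1 symbol, 436 several and 9831 none, and 20764 matched a RefSeq gene. Where a gene had several probe sets the one with the highest mean was kept, leaving 14218 genes. No filter on low values was applied, and all 4 genes were tested in every comparison. The number of arrays limits the precision.

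Treated arrays were grouped by compound, dose, time and campaign, and controls by the compounds their description names; running numbers in the control names (TGF beta-1, MLN-518) were read as one name. Changes were fitted with limma 3.58.1 in R 4.3.3 (treatment and time as terms), with Benjamini-Hochberg adjustment over all genes. The fit was tested on simulated data. The genes, lists and classes were chosen with earlier results of these data known, and the pairs of compounds at the same dose after the class values were seen. The comparisons and genes named in the text were the 6 largest called rises and 4 largest called falls of each gene, the 5 most alike genes, discordant and 4-gene comparisons, classes, dose series, repeats and the 2 genes of each list that rose most often; others were named after their values were seen. The alternatives tried are given at the end. In campaign 5 the replicate numbers pair the samples: they follow the day of hybridization for 55 of 57 arrays, and in 48 of 54 same-numbered pairs from different doses of a compound the deviations from the dose means correlated above 0.1.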

Additional observations from a re-analysis of the deposited data

Results flagged for a closer look

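Each of the 4 genes was looked at in each group of 4 to 8 arrays, 56 sets of values in all, and in 4 of these sets, from 3 groups, 1 array lay far from the rest; chance gives about 1 in 20. Inhbe was at 6.93 in replicate 5 of chlorpromazine in campaign 4, where the other arrays were at 8.00 to 8.29. In control arrays at 0.67 d, Inhbe was at 7.70 in replicate 6 of control set 1 (others 8.18 to 8.39) and at 8.20 in replicate 1 of control set 9 (others 8.30 to 8.32), and Fgf21 was at 5.68 in replicate 4 of control set 9 (others 6.33 to 6.38). All values are log2 intensities, and for set 9 the whole range of Inhbe was narrow.

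Fgf21 with zidovudine at 14800 µM differed between exposure times by 1.76 on the log2 scale, higher at 1 d than at 0.67 d by the interaction term (limma adjusted p = 0.0454).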

How the results depend on the processing

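Of 354 alternative values of the 32 named changes, 333 kept their direction and their side of the threshold, 21 were no longer called and none changed direction. The lost calls were Fgf21 with carmustine and Igfbp1 with lomustine with all controls of the campaign; Fgf21, Igfbp1 and Inhbe with gemfibrozil, Fgf21 and Igfbp1 with monocrotaline and Igfbp1 with lomustine at 1 d alone; Fgf21 with carmustine, Igfbp1 with citalopram (1.94, limma adjusted p = 0.0114), Igfbp1 with monocrotaline and Inhbe with simvastatin (0.76, adjusted p = 0.0107) at 0.67 d alone; Fgf21 with carmustine and Igfbp1 with nimesulide, gemfibrozil (1.88, adjusted p = 0.0871), marimastat and lomustine (-0.69, adjusted p = 0.0138) without the arrays numbered 1; and Fgf21, Igfbp1 and Inhbe with gemfibrozil and Igfbp1 with monocrotaline (-1.27, adjusted p = 0.0363) without those numbered 2. A bound of 2-fold left 0 falls of Fgf21, 1 of Igfbp1 and 12 of Inhbe, and 5 rises of Inhbe. With the methods' t-test 1 compound lowered Fgf21. With 1 d arrays alone Gdf15 rose in 48 and Igfbp1 in 12 comparisons, and Fgf21 fell in 1 and Igfbp1 in 0. With 0.67 d arrays alone Gdf15 rose in 42, Fgf21 in 22 and Igfbp1 in 16, while Fgf21 fell in 1, Igfbp1 in 1 and Inhbe in 14; these fits hold fewer arrays. Leaving out the arrays of 1 replicate number at a time gave 61 to 64 rises of Gdf15, 36 to 50 of Fgf21 (36 without number 1), 19 to 26 of Igfbp1 (19 without number 1) and 8 to 10 of Inhbe, 0 falls of Gdf15, 1 to 2 of Fgf21, 1 to 2 of Igfbp1 and 18 to 21 of Inhbe, 0 to 1 dose trends (1, Gdf15 with methapyrilene, without the arrays numbered 2, which went against the others), 0 time differences and 315 to 348 unequal changes. Time differences numbered 0 with the methods' t-test, 0 with arrays quantile normalized again, 0 with the median of probe sets, 7 with all controls of the campaign and 4 with the replicate block. The cause of these shifts was not tested. Some groups hold more than 1 treated array of the same number, and leaving out that number drops all of them. In campaigns 1 to 3 same-numbered arrays deviated together in part (599 of 1003 same-numbered pairs correlated above 0.1). The mean r was 0.20 for pairs of the same number and -0.05 for pairs of different numbers, and the main fit held no block. Control arrays there are numbered within each control set, up to 8. A shared number need not mean that treated and control arrays belong together, so the block is a limited check. With the replicate block there, 70 of 73 calls of Gdf15, 56 of 59 of Fgf21, 32 of 33 of Igfbp1 and 34 of 35 of Inhbe remained and 6, 5, 16 and 3 were added, Igfbp1 fell in 4 comparisons, and none of the 32 named calls changed. The number of arrays per group, 3 in most, limits what a comparison can show.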
